A study of Homo sapiens with 6 samples.

Results

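The genes of cholesterol and fatty acid synthesis were followed in the RNA of 3 stable lines of HCT116, a human colon carcinoma cell line. They were taken by name, 33 genes out of 20030 rows in the deposited tables, and fall into a sterol arm of 24 genes and a fatty acid arm of 9. All 33 were present, and all 33 passed the filter on low values. One was a control, and the others over-expressed either wild type TEAD4 or TEAD4 K178R, a mutant with lysine replaced by arginine. TEAD4 binds DNA and recruits the coactivators of the Hippo pathway. Each line gave 2 libraries. The titles name the control line HCT116-PQ and do not explain PQ. The labels do not say what the control line carries, which promoter drives TEAD4, whether a line is a single clone, or whether its libraries came from separate cultures. The spread behind each test is therefore that between libraries and may be technical only. The genotype field of wild type replicate 2 names TEAD5, whereas its title names wild type TEAD4, and it was kept in that group.

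Cholesterol is built from acetyl-CoA through mevalonate, isoprenoid units, squalene and lanosterol, and fatty acids are built from acetyl-CoA through malonyl-CoA. Both arms are controlled by the SREBP transcription factors, which SREBF1 and SREBF2 encode as precursors in the membrane of the endoplasmic reticulum. When sterols are scarce, SCAP escorts the precursors to the Golgi for cleavage, and when sterols are plentiful the INSIG proteins hold SCAP back. INSIG1 is itself an SREBP target. SREBP2 is best known for driving the sterol genes and SREBP1 for the fatty acid genes.

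TEAD4 read 16.6 and 17.5 FPKM (read fragments per unit of transcript length and of library size) in the control libraries, 86.4 and 84.4 in the wild type line, and 71.2 and 72.3 in the K178R line. Introduced and endogenous TEAD4 are not told apart by these values. Relative depth was read from values under 0.1 FPKM, as the most common ratio of control replicate 1 to each library. It lay between 0.924 and 1.05, with control replicate 1 as the reference. How many reads each library holds is unknown. In bulk RNA, fewer cells with a transcript and less of it per cell cannot be told apart. Of 10 colon epithelium markers, 1 or 2 were at 0 in each library. CDX1 was at 0 in all 6, whereas CDX2 read 3.13 to 4.28 FPKM and EPCAM 146 to 153. The summed level of these markers, most of it keratins KRT8, KRT18 and KRT19, was 2697 to 2745 FPKM in control, 1851 to 1908 with wild type TEAD4 and 2918 to 2952 with K178R. The part of this shift in the results below was not tested. By gene, the markers did not all follow the sum. Of 8 tested, 1 was higher and 4 lower with wild type TEAD4 at a limma adjusted p under 0.05, against 37.6% and 12.2% of all genes. The higher one was CDX2 (log2 change 0.26). With K178R 4 were higher and 1 lower, against 11.7% and 11.1% of all genes. Liver and fat cells are rich in the same pathways, but 4 hepatocyte markers summed to at most 0.233 FPKM and 4 adipocyte markers to at most 0.117. ADIPOQ and LEP were at 0 in every library. The 6 fibroblast markers summed to 1.501 to 3.75 FPKM, nearly all of it COL1A1, with COL1A2, DCN and LUM at 0. The 5 endothelial markers summed to 1.37 to 2.46, most of it ESAM, and the 6 leukocyte markers to 2.67 to 5.20, most of it CD68 and CORO1A. CD3E and MS4A1 were at 0 throughout.

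The fatty acid arm had the highest levels. FASN, the fatty acid synthase, read 149 and 155 FPKM in the control libraries, and SCD, which introduces the first double bond into saturated chains, read 142 and 143. ACLY, which makes cytosolic acetyl-CoA from citrate, followed at 66.1 and 66.9 FPKM. In the sterol arm EBP, a late sterol isomerase, had the highest level, at 52.4 and 49.4 FPKM. FDPS, DHCR7 and CYP51A1 read between 31.1 and 36.2 FPKM in the control libraries. The lowest sterol members were MVK, INSIG2, STARD4 and HSD17B7, all between 3.02 and 3.82 FPKM in control, and the lowest fatty acid member was LPIN1 at 2.45 and 2.17. Summed over its 24 genes the sterol arm read 394 and 386 FPKM in control, 370 and 365 with wild type TEAD4, and 358 and 364 with K178R. For the 9 fatty acid genes the sums were 404 and 410, then 335 and 329.8 with wild type TEAD4, and 374 and 368 with K178R. In both arms the control libraries thus had the highest sums, and the fatty acid sums of the 3 lines did not overlap. The FPKM of all rows summed to 294328 and 293665 in control, 305342 and 301391 with wild type TEAD4, and 283205 and 285632 with K178R. As a share of that total the sterol arm was 0.134% and 0.132% in control and 0.121% in both wild type libraries. With K178R it was 0.126% and 0.128%, so by share the wild type line was lowest. The libraries of a line differed by a median of 3.25% over the members in control, 4.04% with wild type TEAD4 and 3.43% with K178R.

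**Figure D1:**
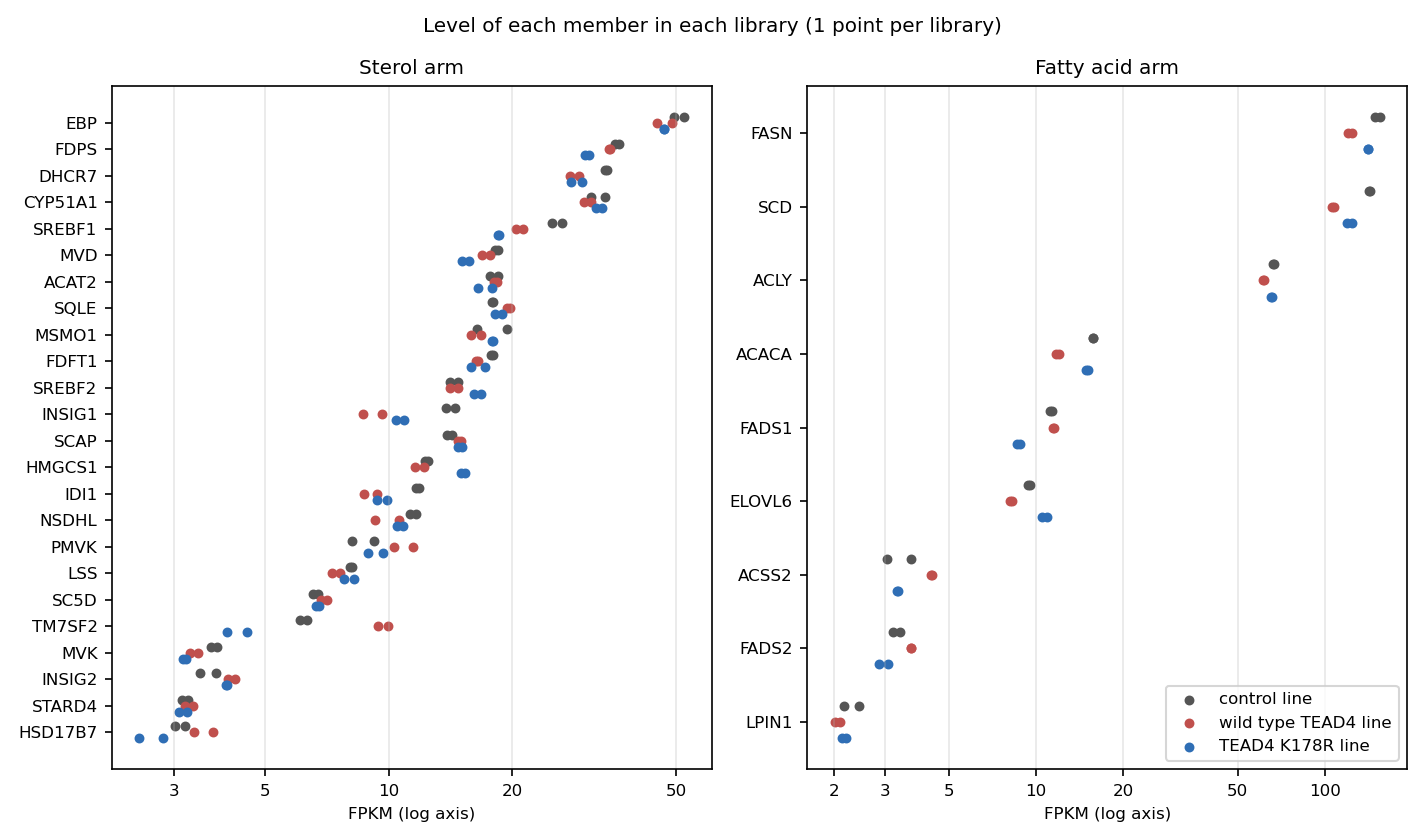
Level of each of the 33 genes in each library, in FPKM on a log axis, 1 point per library and 1 colour per line, with the sterol arm on the left and the fatty acid arm on the right. TM7SF2 shows 3 separate pairs of points, at 6.32 and 6.09 FPKM in control, 9.97 and 9.44 with wild type TEAD4 and 4.04 and 4.52 with K178R.

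The regulators of the pathway were examined first. INSIG1, which retains SCAP in the endoplasmic reticulum, lies on the plus strand at chr7:155297776-155310235 (GRCh38, GENCODE release 29). It read 14.5 and 13.8 FPKM in the control libraries, 8.66 and 9.61 with wild type TEAD4, and 10.4 and 10.9 with K178R. Both lines were below control in every library, and the 3 pairs did not overlap. INSIG1 fell by 35.3% with wild type TEAD4 (log2 change of FPKM + 1 of -0.58, SE 0.06, limma adjusted p = 0.000231) and by 24.6% with K178R (log2 -0.38, SE 0.06, adjusted p = 0.00339). It was higher in K178R than in wild type (log2 0.20, SE 0.06, adjusted p = 0.0213). That difference no longer passed without wild type replicate 1 (adjusted p = 0.105) or without K178R replicate 2 (adjusted p = 0.103). INSIG2, its relative, was not called in any comparison (log2 0.15 and 0.12 against control).

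SREBF1, on the minus strand at chr17:17810399-17837002, read 24.9 and 26.4 FPKM in control, 21.2 and 20.4 with wild type TEAD4, and 18.5 and 18.5 with K178R. The order of the lines was thus the same in every library, with K178R lowest. It fell by 19.0% with wild type TEAD4 (log2 -0.29, SE 0.04, adjusted p = 0.000958) and by 28.0% with K178R (log2 -0.45, SE 0.04, adjusted p = 0.000321). It stood lower with K178R than with wild type TEAD4 (log2 -0.16, SE 0.04, adjusted p = 0.0138), a call that ended under median-of-ratios scaling (adjusted p = 0.312) and upper-quartile scaling (adjusted p = 0.0899). It also ended without wild type replicate 1 (adjusted p = 0.0718), K178R replicate 1 (0.0571) or K178R replicate 2 (0.0542). SREBF2 moved the other way in the K178R line. SREBF2 read 14.1 and 14.7 FPKM in control, 14.7 and 14.1 with wild type TEAD4, and 16.1 and 16.8 with K178R. It rose by 14.1% over control in K178R (log2 0.18, SE 0.04, adjusted p = 0.0224) and stood higher there than with wild type TEAD4 (log2 0.18, SE 0.04, adjusted p = 0.0128). The call against control ended with the control libraries averaged as 1 sample (adjusted p = 0.0832). Leaving out control replicate 1 or 2, or K178R replicate 1 or 2, ended it as well (adjusted p = 0.122, 0.0509, 0.051 and 0.115). The call against the wild type line ended without wild type replicate 2 (adjusted p = 0.068) or K178R replicate 2 (0.0723). SCAP was between 13.9 and 15.1 FPKM in all libraries and was not called in any comparison.

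Promoter sequences were taken from RefSeq (GRCh38.p14), in which 29 of the 33 genes were matched. FDFT1, SQLE, ACAT2 and FASN were not matched. Stretches that lie before both the RefSeq start and the gene start of GENCODE release 29, and end at the first base before the earlier of them, are printed for the regulators SREBF1, SREBF2 and INSIG1, for TM7SF2, the sterol gene that rose most with wild type TEAD4, and for SCD, the fatty acid gene that changed most there. They run 5′ to 3′ on the strand of the gene. Capitals mark the NF-Y box CCAAT, read on either strand (ATTGG on the reverse), and in SREBF2 also the sterol regulatory element.
INSIG1, chr7:155297628-155297775, plus strand: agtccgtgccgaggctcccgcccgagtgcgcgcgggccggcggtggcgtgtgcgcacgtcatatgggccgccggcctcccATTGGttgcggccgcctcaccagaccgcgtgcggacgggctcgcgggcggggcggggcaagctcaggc
SREBF1, chr17:17837003-17837236, minus strand: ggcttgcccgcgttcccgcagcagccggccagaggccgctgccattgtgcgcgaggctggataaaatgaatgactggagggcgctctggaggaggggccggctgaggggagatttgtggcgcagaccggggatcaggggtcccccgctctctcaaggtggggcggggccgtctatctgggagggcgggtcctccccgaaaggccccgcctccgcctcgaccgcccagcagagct
SREBF2, chr22:41832855-41833078, plus strand: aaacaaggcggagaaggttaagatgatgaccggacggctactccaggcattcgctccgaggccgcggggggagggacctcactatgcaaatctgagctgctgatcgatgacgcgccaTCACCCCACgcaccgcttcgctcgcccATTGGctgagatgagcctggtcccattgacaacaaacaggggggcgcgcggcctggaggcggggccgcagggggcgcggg
TM7SF2, chr11:65111622-65111844, plus strand: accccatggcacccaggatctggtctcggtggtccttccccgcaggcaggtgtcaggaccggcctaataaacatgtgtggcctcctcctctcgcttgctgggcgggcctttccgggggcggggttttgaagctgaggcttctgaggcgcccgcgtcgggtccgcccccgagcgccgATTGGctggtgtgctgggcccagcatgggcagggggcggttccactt
SCD, chr10:100346983-100347123, plus strand: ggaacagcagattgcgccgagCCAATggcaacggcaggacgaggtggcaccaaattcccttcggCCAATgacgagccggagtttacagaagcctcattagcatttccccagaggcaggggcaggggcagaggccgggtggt

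In the 250 bases before the RefSeq start, searched on both strands, CCAAT was found in 19 of 29 promoters (65.5%), against 32.9% of all 27305 promoters in the table and 35.1% of the 9086 that belong to genes tested here. It was in 15 of 21 sterol promoters and 4 of 8 fatty acid promoters. The GC box GGGCGG was in 25 of 29 (86.2%), against 68.8% of the genes tested. The sterol regulatory element, searched as TCACNCCAC, was in 1 of 29, SREBF2, against 0.947% of the genes tested. CATTCC, the core of the TEAD site, was in 5 of 29 (17.2%), namely PMVK, HSD17B7, EBP, STARD4 and LPIN1, against 9.32% of the genes tested. No motif is contained in another, though neighbouring matches can share letters, and a match describes the sequence only.

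With wild type TEAD4, 4 of the 33 genes were higher than in control and 10 were lower, at a Benjamini-Hochberg adjusted p under 0.05. Over all 11445 genes tested, 37.6% were called higher and 12.2% lower. The fatty acid arm held 1 gene called higher and 5 called lower of 9, and the sterol arm 3 higher and 5 lower of 24. The median log2 change was -0.11 in the fatty acid arm and -0.07 in the sterol arm, beside 0.09 over all genes. These counts depend on the scaling. Median-of-ratios scaling shifted the log2 changes of wild type against control by a median of -0.11 over all genes, and then 1 of the 33 was called higher and 20 lower, against 22.5% and 25.2% of all genes. Upper-quartile scaling gave 3 higher and 17 lower, against 27.8% and 18.9%.

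Among the 5 fatty acid genes that fell were both core enzymes. FASN, on the minus strand at chr17:82078333-82098332, went from 149 and 155 FPKM to 124 and 121, a fall of 19.7% (log2 -0.31, SE 0.03, adjusted p = 0.000165). ACACA, the acetyl-CoA carboxylase that supplies malonyl-CoA, went from 15.8 and 15.8 FPKM to 11.7 and 12.03, a fall of 24.6% (log2 -0.38, SE 0.04, adjusted p = 0.000195). SCD, on the plus strand at chr10:100347124-100364834, went from 142 and 143 FPKM to 108 and 106, a fall of 25.1% (log2 -0.41, SE 0.03, adjusted p = 5.3e-05). In each of these 3 genes both wild type libraries were below both control libraries. ELOVL6, which lengthens saturated chains, went from 9.37 and 9.51 FPKM to 8.15 and 8.24 (log2 -0.18, SE 0.04, adjusted p = 0.00811). ACLY fell by 7.56%, from 66.1 and 66.9 FPKM to 61.7 and 61.2 (log2 -0.11, SE 0.03, adjusted p = 0.00865), and did not pass without control replicate 2 (adjusted p = 0.0527). A second source of acetyl-CoA moved the opposite way. ACSS2, which makes it from acetate, went from 3.69 and 3.06 FPKM to 4.35 and 4.36 (log2 0.29, SE 0.07, adjusted p = 0.0124). This call ended under median-of-ratios scaling (adjusted p = 0.0555) and without control replicate 2 (0.0552). The control libraries of ACSS2 differed by 18.7%, the widest gap of any member in that line. The desaturases FADS1 and FADS2 and the phosphatidate phosphatase LPIN1 were not called (log2 0.03, 0.13 and -0.11).

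Without added scaling, the change of the sterol arm with wild type TEAD4 was uneven along the pathway. The sterol genes called lower went from 5 to 14 under median-of-ratios scaling and to 12 under upper-quartile scaling. FDPS, not called without scaling, passed as lower under both (limma adjusted p = 0.0026 and 0.0114). Of the early steps HMGCS1, ACAT2, MVK and MVD were not called, though HMGCS1, MVK and MVD passed as lower under median-of-ratios scaling (adjusted p = 0.0115, 0.00997 and 0.00559). PMVK, the phosphomevalonate kinase, read 8.16 and 9.24 FPKM in control and 10.3 and 11.4 with wild type TEAD4 (log2 0.29, SE 0.07, adjusted p = 0.0129). It did not pass under median-of-ratios scaling (adjusted p = 0.0782), nor when control replicate 1 (0.0776) or wild type replicate 2 (0.0726) was left out. IDI1, the isomerase that makes the reactive isoprenoid unit, fell by 23.1%, from 11.6 and 11.9 FPKM to 9.37 and 8.70 (log2 -0.35, SE 0.05, adjusted p = 0.00119). DHCR7, which catalyses a last step of cholesterol synthesis, fell by 16.3%, from 33.7 and 34.0 FPKM to 27.6 and 29.02 (log2 -0.25, SE 0.04, adjusted p = 0.00206). Both genes were lower in each wild type library than in each control library.

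TM7SF2, a sterol reductase acting on the C14 double bond, was the sterol gene that rose most. The gene lies on the plus strand at chr11:65111845-65116384. From 6.32 and 6.09 FPKM in control it rose to 9.97 and 9.44 with wild type TEAD4, by 56.3% (log2 0.57, SE 0.06, adjusted p = 0.000301). SQLE, the squalene epoxidase, read 17.9 and 17.9 FPKM in control and 19.8 and 19.5 with wild type TEAD4 (log2 0.12, SE 0.04, adjusted p = 0.0219). That rise did not pass under either scaling (adjusted p = 0.875 for median of ratios and 0.232 for upper quartile) or with the control libraries averaged (0.0813). It did not pass without control replicate 1 (adjusted p = 0.0753), control replicate 2 (0.0847), wild type replicate 1 (0.0923) or wild type replicate 2 (0.0548) either. NSDHL, a dehydrogenase in the removal of methyl groups from the sterol ring, read 11.6 and 11.3 FPKM in control and 10.6 and 9.28 with wild type TEAD4 (log2 -0.19, SE 0.06, adjusted p = 0.0342). Its call ended with the control libraries averaged (adjusted p = 0.109) and without control replicate 1 (0.141), control replicate 2 (0.0827) or wild type replicate 2 (0.161). The 16 sterol genes without a call in this comparison stood between log2 -0.13 and 0.15.

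**Figure D2:**
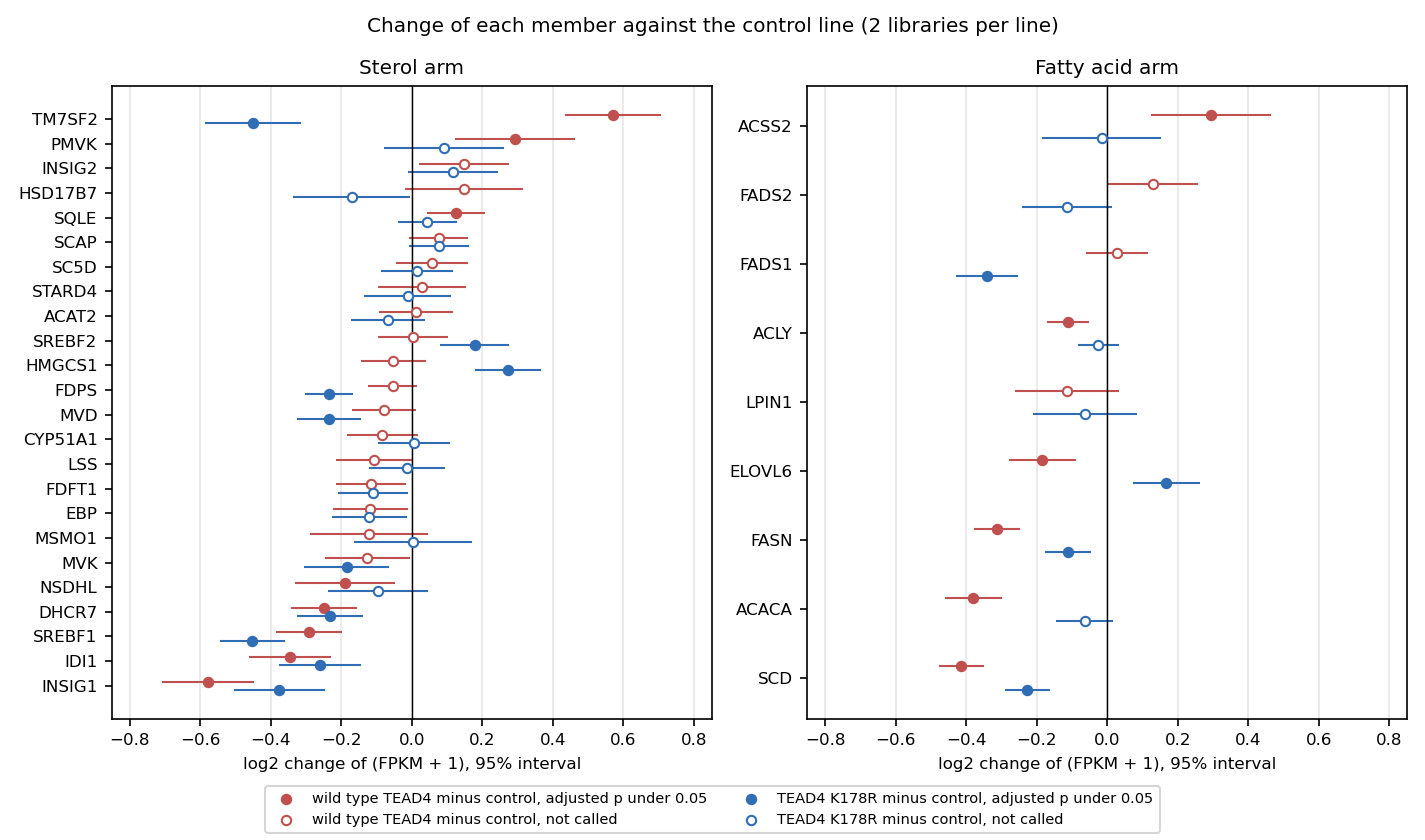
Change of each gene against control on the log2(FPKM + 1) scale with its 95% interval, wild type TEAD4 in red and K178R in blue, filled where the adjusted p was under 0.05. INSIG1, IDI1, SREBF1 and DHCR7 lie left of 0 in both lines, and TM7SF2 lies at 0.57 with wild type TEAD4 and at -0.45 with K178R; both sets of changes use the same control libraries.

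With K178R, 3 of the 33 genes were higher than in control and 11 were lower. Over all genes 11.7% were called higher and 11.1% lower. In the sterol arm 2 were higher and 8 lower of 24, with a median log2 change of -0.08, and in the fatty acid arm 1 was higher and 3 lower of 9, with a median of -0.06. The median over all genes was 0.0025. Both scalings left the counts of the 33 genes at 3 and 11. This comparison shares its control libraries with the one before, so values that fall in both are not independent of each other.

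Among the enzymes of mevalonate and isoprenoid synthesis, 4 of the 5 were lower with K178R. MVD, which makes isopentenyl diphosphate, read 18.1 and 18.5 FPKM in control and 15.1 and 15.7 with K178R (log2 -0.24, SE 0.04, adjusted p = 0.00558). FDPS, the farnesyl diphosphate synthase, fell by 15.4%, from 36.2 and 35.6 FPKM to 30.1 and 30.7 (log2 -0.23, SE 0.03, adjusted p = 0.00169). Neither gene overlapped its control values. IDI1 fell to 9.36 and 9.93 FPKM (log2 -0.26, SE 0.05, adjusted p = 0.00952). Its call ended with the control libraries averaged (adjusted p = 0.0573), without control replicate 2 (0.0597) or without K178R replicate 1 (0.0579). MVK, the mevalonate kinase, read 3.82 and 3.70 FPKM in control and 3.16 and 3.22 with K178R (log2 -0.19, SE 0.05, adjusted p = 0.0386). The MVK call did not pass without any 1 of the 6 libraries: adjusted p was 0.163 and 0.102 without control replicates 1 and 2, 0.0518 and 0.0513 without wild type replicates 1 and 2, and 0.141 and 0.112 without K178R replicates 1 and 2. PMVK was the member of this group that was not called (log2 0.09).

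HMGCS1, which condenses acetyl and acetoacetyl units at the entry to the pathway, was the sterol enzyme that rose with K178R. Its values were 12.5 and 12.3 FPKM in control, 11.6 and 12.2 with wild type TEAD4, and 15.0 and 15.4 with K178R. Both K178R libraries were above the other 4. The rise over control was 22.5% (log2 0.27, SE 0.04, adjusted p = 0.0032). Late in the pathway, DHCR7 fell to 27.8 and 29.5 FPKM (log2 -0.23, SE 0.04, adjusted p = 0.00678). TM7SF2 fell to 4.04 and 4.52 FPKM, by 31.0% (log2 -0.45, SE 0.06, adjusted p = 0.00196), so that it was higher than control in one line and lower in the other.

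In the fatty acid arm, FADS1, the delta-5 desaturase of polyunsaturated chains, changed most with K178R. It read 11.4 and 11.2 FPKM in control, 11.6 and 11.5 with wild type TEAD4, and 8.59 and 8.81 with K178R. The K178R libraries lay below the other 4, a fall of 22.9% from control (log2 -0.34, SE 0.04, adjusted p = 0.000972). SCD fell by 14.7%, to 124 and 119 FPKM (log2 -0.23, SE 0.03, adjusted p = 0.00139). FASN fell by 7.45%, to 141 and 141 FPKM (log2 -0.11, SE 0.03, adjusted p = 0.0274). The FASN call ended with the control libraries averaged (adjusted p = 0.0867) and without control replicate 2 (0.147), K178R replicate 1 (0.101) or K178R replicate 2 (0.111). ELOVL6 rose by 13.6%, to 11.0 and 10.5 FPKM (log2 0.17, SE 0.04, adjusted p = 0.0248). The ELOVL6 call ended with the control libraries averaged (adjusted p = 0.104) and without control replicate 1 (0.115), control replicate 2 (0.0834), K178R replicate 1 (0.126) or K178R replicate 2 (0.053). ACACA, ACLY and ACSS2, all called with wild type TEAD4, were not called with K178R (log2 -0.06, -0.02 and -0.02).

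The direct comparison of K178R with wild type TEAD4 tests whether the lines differ. TEAD4 itself was lower with K178R than with wild type TEAD4 (log2 -0.25, SE 0.03, limma adjusted p = 0.00131). The mutation and the level of TEAD4 therefore cannot be told apart in this comparison. Of the 33 genes, 8 were higher with K178R and 8 lower, and over all genes 10.4% were called higher and 34.5% lower. In the fatty acid arm 5 of 9 were higher and 3 lower, with a median log2 difference of 0.09, and in the sterol arm 3 of 24 were higher and 5 lower, with a median of -0.02. The median over all genes was -0.08. Under median-of-ratios scaling 15 of the 33 were higher and 4 lower, against 22.7% and 19.8% of all genes, and under upper-quartile scaling 11 and 6, against 1951 and 2789 of all genes.

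In the fatty acid arm genes of both directions were called. ACACA (log2 0.32, SE 0.04, adjusted p = 0.000598), FASN (log2 0.20, SE 0.03, adjusted p = 0.00131), SCD (log2 0.19, SE 0.03, adjusted p = 0.00174) and ELOVL6 (log2 0.35, SE 0.04, adjusted p = 0.00071) were all higher with K178R. They encode enzymes that make, lengthen or desaturate saturated chains. For these 4 genes each K178R library was above each wild type library. ACACA read 15.1 and 14.9 FPKM with K178R against 11.7 and 12.03 with wild type TEAD4, which put it 26.4% higher. ACLY was higher by 6.31%, at 65.1 and 65.6 FPKM (log2 0.09, SE 0.03, adjusted p = 0.0262). Its call ended without wild type replicate 1 (adjusted p = 0.0655), wild type replicate 2 (0.0914), K178R replicate 1 (0.0797) or K178R replicate 2 (0.106).

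FADS1, FADS2 and ACSS2 were the 3 fatty acid genes called lower. FADS1 was 24.6% lower with K178R than with wild type TEAD4 (log2 -0.37, SE 0.04, adjusted p = 0.000423). FADS2, the delta-6 desaturase, read 3.70 and 3.68 FPKM with wild type TEAD4 and 3.06 and 2.87 with K178R (log2 -0.24, SE 0.05, adjusted p = 0.00999). It did not pass under median-of-ratios scaling (adjusted p = 0.0551) or without K178R replicate 2 (0.0575). FADS1 and FADS2 are neighbours on chromosome 11 and share 490 exon bases on opposite strands in GENCODE release 29. For ACSS2 the K178R libraries read 3.32 and 3.31 FPKM (log2 -0.31, SE 0.07, adjusted p = 0.0115).

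TM7SF2 differed most of the 33 between the lines. K178R was 55.9% below wild type TEAD4 (log2 -1.02, SE 0.06, adjusted p = 5.2e-05). HSD17B7, a ketosteroid reductase of the same late steps, read 3.75 and 3.36 FPKM with wild type TEAD4 and 2.48 and 2.83 with K178R (log2 -0.32, SE 0.07, adjusted p = 0.00967). Neither line was called against control for HSD17B7, and the difference did not pass without wild type replicate 1 (adjusted p = 0.055) or K178R replicate 1 (0.0562). HMGCS1 was 27.4% higher with K178R (log2 0.33, SE 0.04, adjusted p = 0.000856). FDPS was lower (log2 -0.18, SE 0.03, adjusted p = 0.00264), but not under median-of-ratios scaling (adjusted p = 0.0866). MVD was lower (log2 -0.16, SE 0.04, adjusted p = 0.015), and that call ended under median-of-ratios (adjusted p = 0.344) and upper-quartile scaling (0.0963). It also ended without wild type replicate 1 (adjusted p = 0.0808) or K178R replicate 1 (0.0817).

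**Figure D3:**
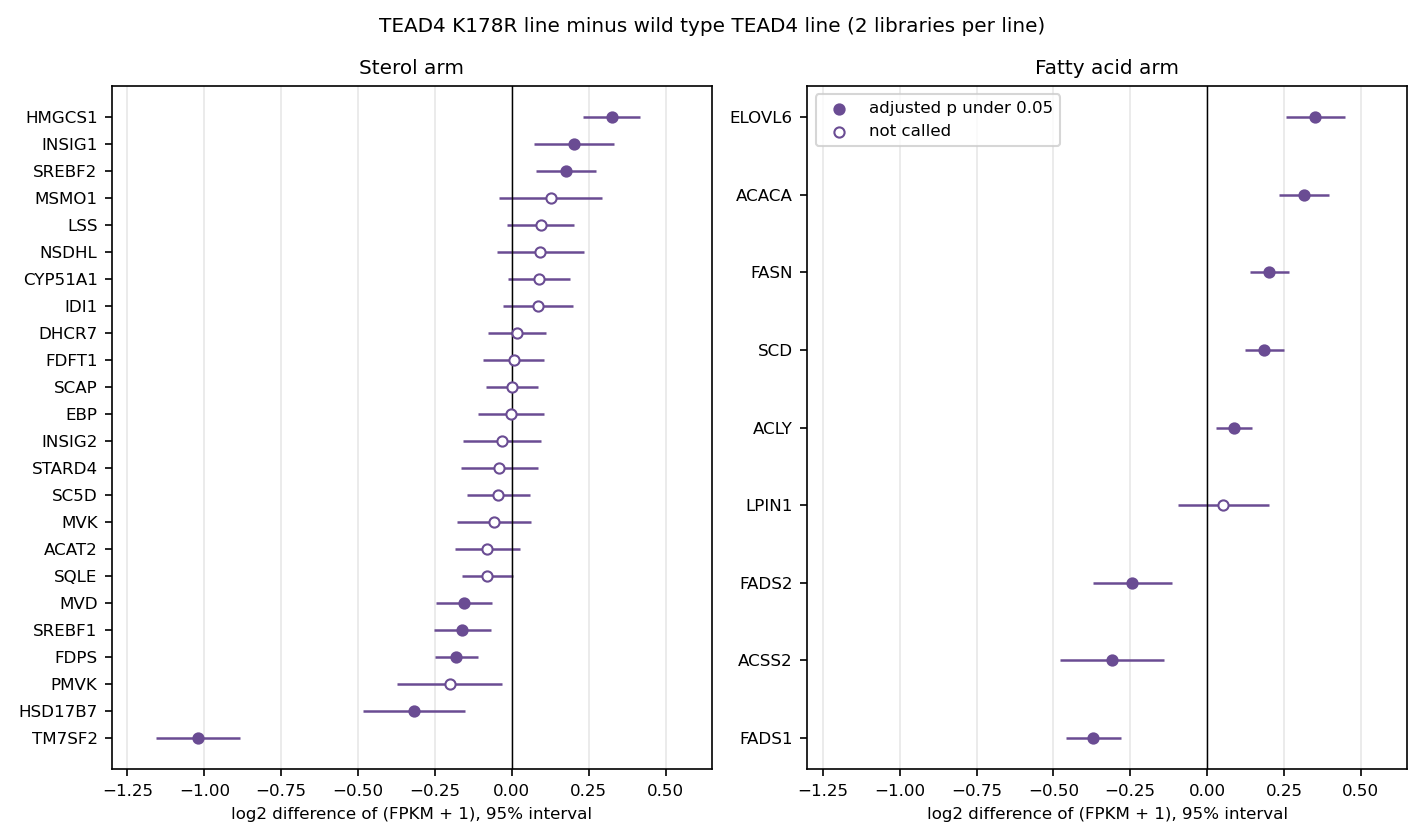
Log2 difference of (FPKM + 1) between the K178R and wild type TEAD4 lines for each gene, with its 95% interval, filled where the adjusted p was under 0.05. TM7SF2 stands at -1.02, and ELOVL6, ACACA, FASN, SCD and ACLY lie above 0 while FADS1, ACSS2 and FADS2 lie below.

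Across the 3 comparisons 11 of the 33 genes were called in none: FDFT1, LSS, CYP51A1, MSMO1, EBP, SC5D, INSIG2, SCAP, STARD4, ACAT2 and LPIN1. They hold FDFT1 and LSS of the 3 squalene enzymes and 4 of the 8 late sterol enzymes, besides ACAT2, which joins acetyl units, and STARD4, a sterol transfer protein. Taken singly, the comparisons left 19, 19 and 17 of the 33 without a call (wild type against control, K178R against control, between the lines). Of all 11445 genes tested they left 5734, 8835 and 6306. How many of all genes were called in none was not counted. The squalene synthase FDFT1 read 18.0 and 17.8 FPKM in control, 16.5 and 16.4 with wild type TEAD4, and 15.9 and 17.2 with K178R. CYP51A1, the lanosterol demethylase, read 33.5 and 31.1, then 29.8 and 31.1, then 31.9 and 33.01 FPKM in the same order, and its lines overlapped. A p that misses the threshold does not show that these genes did not differ. Under median-of-ratios scaling FDFT1, LSS, CYP51A1, MSMO1, EBP and LPIN1 passed as lower with wild type TEAD4 than in control (adjusted p = 0.00384, 0.00719, 0.00674, 0.0264, 0.00419 and 0.0339). Under the same scaling CYP51A1, LSS, MSMO1 and SCAP passed as higher with K178R than with wild type TEAD4 (adjusted p = 0.00905, 0.0138, 0.0322 and 0.0477). In GENCODE release 29, CYP51A1 shares 79.4% of its exon bases with the gene AC000120.2 on the same strand, and ACAT2 shares 52.3% of its exon bases with genes on the opposite strand. On the opposite strand FDPS shares 18.6%, HMGCS1 15.0% and IDI1 14.8% of exon bases with other genes. LSS shares 7.875% and SREBF1 6.92%, and some other members share less. FDPS has 8 named pseudogenes, CYP51A1 has 3, HSD17B7 has 2, and SCD and FADS2 have 1 each. No source used here says how the authors counted such reads, so the values of these genes are uncertain to that extent.

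**Figure D4:**
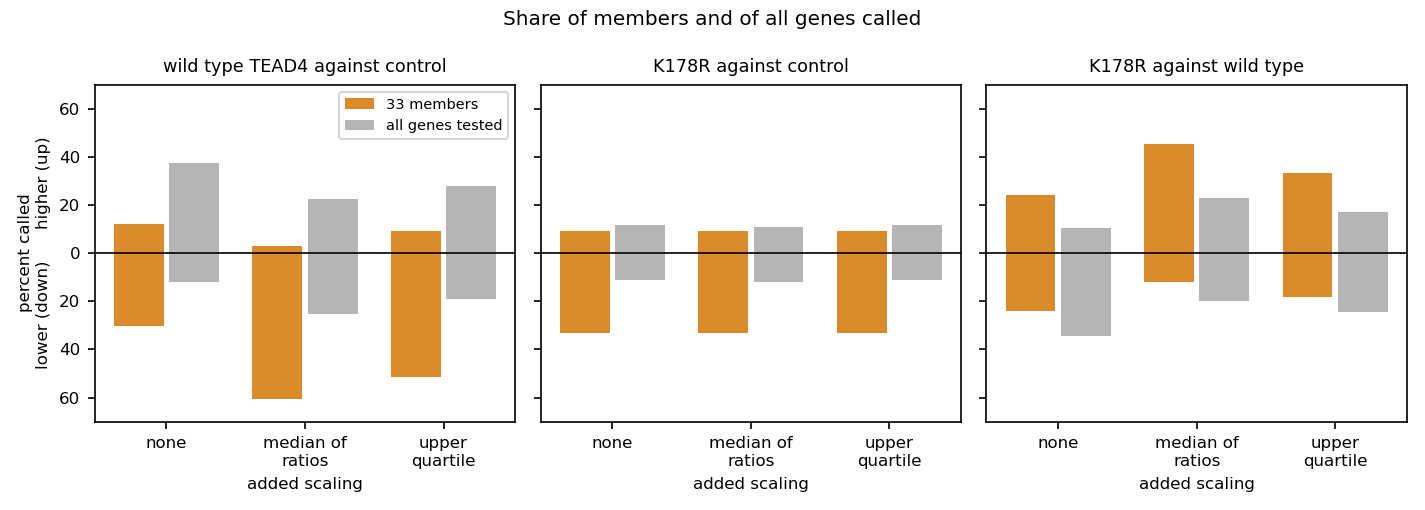
Percent of the 33 genes (orange) and of all 11445 genes tested (grey) called higher (upward bars) and lower (downward bars) in each comparison, without added scaling and after median-of-ratios or upper-quartile scaling. In K178R against control the members stayed at 9.09% higher and 33.3% lower under all 3 settings, whereas with wild type TEAD4 the share called lower went from 30.3% to 60.6% and 51.5%.

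Genes of neighbouring pathways were counted in the same fit, and each count is read against the share of all genes: 37.6% higher and 12.2% lower for wild type TEAD4 against control, 11.7% and 11.1% for K178R against control, and 10.4% and 34.5% between the lines. Of 20 genes of fatty acid oxidation, the pathway that burns what the fatty acid arm makes, 12 were higher (60%) and 0 lower with wild type TEAD4 (limma; 13 and 0 at an unadjusted p under 0.05), with a median log2 change of 0.22. After median-of-ratios scaling 4 were higher (20%) and 0 lower, where 22.5% and 25.2% of all genes were. ACADVL, the very long chain acyl-CoA dehydrogenase, went from 37.6 ± 0.925 FPKM (SD, n = 2) to 52.9 ± 0.959 (log2 0.48, adjusted p = 0.000156). It was 35.2 ± 1.93 FPKM with K178R, lower than with wild type TEAD4 (log2 -0.58, adjusted p = 0.000134). ECI2, an enoyl-CoA isomerase, rose in both lines (log2 0.67 and 0.83), and was the 1 gene of the 20 called higher with K178R, where 2 were lower. Between the lines 1 of the 20 was higher and 11 lower with K178R, and 1 and 7 under median-of-ratios scaling.

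Of 20 other genes of fatty acid elongation, desaturation and activation, 9 were higher (45%) and 2 lower (10%) with wild type TEAD4, and 2 were higher (10%) and 4 lower (20%) with K178R. The shares called higher are near those of all genes. Median-of-ratios scaling gave 6 higher and 3 lower with wild type TEAD4. The desaturase relatives FADS3 (log2 0.66) and SCD5 (log2 0.58) rose with wild type TEAD4, opposite in direction to SCD. With K178R the acyl-CoA synthetases ACSL5 and ACSL3 fell, ACSL5 from 29.6 ± 0.654 FPKM to 18.2 ± 0.347 (log2 -0.68, adjusted p = 2.1e-05). Among 15 genes of glycerolipid synthesis, 7 were higher (46.7%) and 2 lower (13.3%) with wild type TEAD4, led by AGPAT1, an acyltransferase of phosphatidic acid synthesis (log2 0.59), and that scaling made it 4 and 4. With K178R 1 was higher and 6 were lower (40%), among them DGAT2, which makes triglyceride (log2 -0.46). AGPAT1 was lower with K178R than with wild type TEAD4 (log2 -0.75, adjusted p = 5.6e-05). Between the lines 2 of the 15 were higher with K178R and 9 lower, and of the 20 other fatty acid genes 0 and 11, or 2 and 6 under median-of-ratios scaling.

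Of 13 genes that supply acetyl-CoA and NADPH, 5 were higher (38.5%) and 2 lower (15.4%) with wild type TEAD4, close to the shares of all genes (3 and 5 under median-of-ratios scaling). In this list 0 were higher and 4 lower (30.8%) with K178R (limma; 2 and 4 at an unadjusted p under 0.05). The citrate carrier SLC25A1 (log2 -0.26) and the malic enzyme ME1 (log2 -0.29), which feed fatty acid synthesis, were among the 4. Of 10 genes of sterol handling and efflux, 5 were higher (50%) and 1 lower (10%) with wild type TEAD4 (1 and 1 under that scaling). Between the lines 1 was higher and 7 lower (70%) with K178R, or 1 and 3 under that scaling. Against control 0 were higher and 2 lower with K178R (limma; 0 and 3 at an unadjusted p under 0.05). Those 2 were NPC2, which carries cholesterol out of lysosomes (19.2 ± 0.335 to 14.5 ± 0.945 FPKM, log2 -0.39, adjusted p = 0.0021), and NR1H3, which encodes a liver X receptor (log2 -0.31). Of 11 other genes of sterol sensing, 4 were higher (36.4%, a share close to that of all genes) and 0 lower with wild type TEAD4 (3 and 2 under that scaling), among them the protease gene MBTPS1, whose product cleaves the SREBP precursors (log2 0.29), and C12orf49 (log2 0.31); at an unadjusted p under 0.05 limma gave 5 and 0. With K178R 1 was higher, TMEM97 (log2 0.15), and 0 under median-of-ratios scaling. The isoprenoid branches that leave the pathway at farnesyl diphosphate had 3 genes higher (25%) and 1 lower (8.33%) of 12 with wild type TEAD4, both below the shares of all genes. They had 2 higher (16.7%) and 0 lower with K178R (limma; 3 and 1 at an unadjusted p under 0.05). Under median-of-ratios scaling the split of that list with wild type TEAD4 was 1 higher and 4 lower.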

How the data were processed

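RNA sequencing libraries were made from total RNA with a TruSeq kit, per the labels' protocols, 2 for each of 3 HCT116 lines, and grouped by title. The authors deposited 1 table of FPKM values per library. Bowtie 0.12.2 and hg18 are named in the submitters' processing notes. The FPKM program, annotation and strand setting: not given in the sources used here. Of 20030 rows, 4 with a repeated identifier were left out. No coordinates were taken from the files. Gene positions are from GENCODE release 29 and promoters from RefSeq, both in GRCh38.

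FPKM values are not counts, so log2(FPKM + 1) was tested, which understates changes of low genes. Genes reaching 0.5 FPKM in 2 or more libraries (11445) were fitted with limma 3.58.1 (R 4.3.3, with trend) on all 6 libraries and 3 group means, with two-sided tests, Benjamini-Hochberg adjustment over all genes and a threshold of 0.05. Intervals are 95% and not adjusted. The fit was tested on simulated data. Alternatives covered scaling, pseudocount, filters, variance trend, groups in the fit, a replicate block, averaged controls and each library left out.

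All members are reported, and from each neighbouring list at most the 2 called genes with the largest change per comparison. The members and lists were chosen with earlier results of these data known.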

Additional observations from a re-analysis of the deposited data

Results flagged for a closer look

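TM7SF2 and ELOVL6 were each called in opposite directions against control in the 2 lines, and were also called between the lines. They were picked by these calls, and the comparisons share libraries. The p of the difference between the lines is therefore no separate support. For TM7SF2, higher with wild type TEAD4 and lower with K178R, the log2 difference of K178R from wild type was -1.02 (limma adjusted p = 5.2e-05). For ELOVL6, lower with wild type TEAD4 and higher with K178R, it was 0.35 (adjusted p = 0.00071). Both differences passed in all 15 alternatives. The ELOVL6 call of K178R against control did not, and its values without each library are given with that result.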

How the results depend on the processing

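No member reversed direction while called in any of the 15 alternatives. Of the 14 members called with wild type TEAD4 9 passed in all alternatives, of the 14 with K178R 9, and of the 16 between the lines 8. Both scalings left K178R against control at 3 members higher and 11 lower. In wild type against control, sterol genes called higher went from 3 to 1 and fatty acid genes called higher from 1 to 0 under median-of-ratios scaling, and sterol genes called lower from 5 to 14, or 12 with the upper quartile. Between the lines, sterol genes higher with K178R went from 3 to 10 and 6, and lower from 5 to 2 and 3, in the same order. With the control libraries averaged, K178R against control held 1 sterol and 0 fatty acid genes called higher. Over all genes, K178R against control then had 658 higher and 577 lower, against 1342 and 1268. Median-of-ratios scaling gave 2572 higher and 2884 lower for wild type against control (main 4309 and 1402) and 2600 and 2270 between the lines (main 1187 and 3952). Upper-quartile scaling gave 2162 lower for the first and 1951 higher for the last.

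With 1 library left out, the lone library of a line is assumed to vary like the others. In wild type against control, sterol genes called higher ranged from 1 (without wild type replicate 2) to 3 and lower from 4 to 6, and fatty acid genes from 0 (without control replicate 2) to 1 and from 4 to 5. In K178R against control the ranges were 1 to 2 and 6 to 7 for sterol genes and 0 to 1 and 2 to 3 for fatty acid genes, the lowest counts of higher genes without either control or either K178R library. Between the lines they were 1 (without K178R replicate 2) to 4 and 2 (without K178R replicate 1; 3 without wild type replicate 1) to 6, then 4 to 5 and 2 to 3. Over all genes the ranges were 3219 to 4197 higher and 992 to 1336 lower, 732 to 1266 and 635 to 1229, and 793 to 1098 and 2934 to 3771.

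No pairing of the samples by replicate number was seen: deviations of same-numbered libraries correlated at 0.015, -0.031 and 0.032. These values do not show whether same-numbered libraries were prepared together. With a replicate block, sterol genes called lower in wild type against control were 6, and in K178R against control 7, since EBP passed in the first (adjusted p = 0.0382) and MVK did not in the second (adjusted p = 0.0574). Without the filter on low values the calls of NSDHL with wild type TEAD4, MVK and FASN with K178R and INSIG1 between the lines ended (adjusted p = 0.0823, 0.0652, 0.0564 and 0.0556). Without the variance trend those of NSDHL, of FASN with K178R and of ACLY between the lines did (0.0511, 0.102 and 0.0904), and with only the groups compared in the fit that of MVK (0.0506). Leaving out a library also added calls with wild type TEAD4: EBP lower without wild type replicate 1 (adjusted p = 0.02001), FDFT1 lower without K178R replicate 1 or 2 (0.0349 and 0.0353), MSMO1 lower without control replicate 2 (0.014) and INSIG2 higher without control replicate 1 (0.04999). Between the lines it added PMVK as lower without control replicate 1 or 2 or wild type replicate 1 (0.0464, 0.0468 and 0.0447), MSMO1 as higher without control replicate 1 or 2 (0.0484 and 0.0478) and NSDHL as higher without wild type replicate 1 (0.0387). Where the cause of a lost call is not shown by fewer samples or by the scaling shift, it was not tested. The number of reads is unknown, so no counting error could be given.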
